A study of Mus musculus with 12 samples.

Results

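A short list of protein-coding genes was expressed in control cardiac fibroblast cultures at 4 weeks and was close to 0 counts in cultures given *Sox17* and *Erg*. A gene was taken when it had at most 5 counts in each of the 6 *Sox17*-*Erg* libraries and at least 50 counts in both control libraries at 4 weeks. Of 35727 genes in the count table, 21793 of them protein-coding, 12 met both limits. The adipocyte genes *Adipoq*, *Cfd*, *Cidec* and *Retn* were among the 12 and were set aside by name, as were *Fabp4*, *Lep* and *Plin1*, which did not meet the limits. The remaining 8 genes were *Car3*, *Slc36a2*, *A530016L24Rik*, *Mlxipl*, *Acsm3*, *Ces1d*, *Cyp2e1* and *Cyp2f2*. The same limits with the treatments exchanged took 23 genes.

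Bulk RNAseq was collected from cultured neonatal mouse cardiac fibroblasts 3 days, 7 days and 4 weeks into culture under each treatment, as 6 groups of 2 libraries. In the study's methods, hearts of newborn *C57BL/6J* mice, or of *Tcf21*-CreERT2 mice bred to *Rosa26*-tdTomato, were pooled, and fibroblasts were pulled down with an antibody to THY1, after removal of PECAM1-positive cells where that step was used. The study describes this removal for the isolations in which the reprogrammed cells were characterized, and which strain each library came from is not given in the sources used here. Retrovirus carried *Sox17* and *Erg* into the reprogrammed cultures, which the labels call iEC (induced endothelial cells). The control cultures are labelled fibroblast, and their data columns are named PMX after the retroviral backbone. All cultures share the endothelial growth medium EGM2, and no sorting of cells before RNA extraction is described. Library totals ran from 19011635 to 41240449 counts, and the latter was library 1 of the 4-week controls. *Sox17* had 10019 to 36238 counts in the *Sox17*-*Erg* libraries and 0 to 9 in the controls, and *Erg* had 389 to 1842 against 2 to 49. The 10 fibroblast markers summed to between 18574 and 53909 CPM (counts scaled for depth with TMM factors) in the controls, and to between 29623 and 56597 with *Sox17*-*Erg*. The 6 endothelial markers summed to 16.9 to 47.2 CPM in the controls and 294 to 756 CPM with *Sox17*-*Erg*.

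Adipocytes arise from mesenchymal precursors that switch on the transcription factors *Pparg* and *Cebpa*, and then make lipid droplets, lipases and secreted adipokines. ChREBP, the product of *Mlxipl*, senses glucose-derived sugars and drives lipogenic genes in liver and fat. Cytochrome P450 enzymes oxidize small molecules in the endoplasmic reticulum, and carboxylesterases hydrolyze ester bonds in drugs and in stored triacylglycerol.

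*Car3*, *Slc36a2* and *A530016L24Rik* are known from fat, *Mlxipl* encodes the only transcription factor, *Acsm3* activates fatty acids in mitochondria, and *Ces1d*, *Cyp2e1* and *Cyp2f2* are enzymes of ester hydrolysis and oxidation. They lie on 6 mouse chromosomes. *Cyp2f2*, *Acsm3* and *Cyp2e1* share chromosome 7, where neighbours are 92.63 and 20.98 Mb apart. Over the 156897411 counts of the 6 *Sox17*-*Erg* libraries together, *Ces1d* and *Cyp2f2* had 1 count each, *Slc36a2* had 2, *Car3* had 6, *Cyp2e1* and *A530016L24Rik* had 8 each, *Mlxipl* had 14 and *Acsm3* had 19. No gene passed 0.215 CPM in any of them. These counts and those of the 4-week controls chose the genes and carry no test. In bulk RNA, fewer cells of a type and less RNA per cell cannot be told apart.

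The name given to such genes, on in control, held at 4 weeks. At Day 3 the control cultures were also close to 0, and the highest count of any of the 8 genes there was 12. Between Day 3 and 4 weeks the genes followed different courses, as the plot of counts by library shows. The genes are grouped here by that course, a grouping made after the values were seen.

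**Figure D1:**
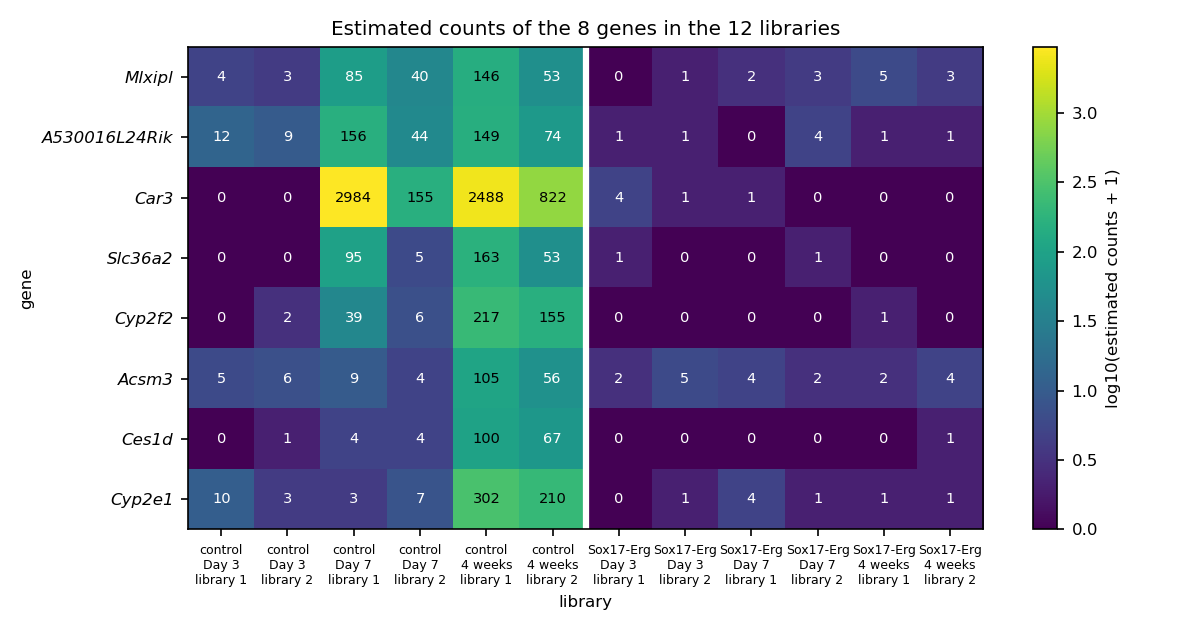
Heatmap of the counts of the 8 genes in each of the 12 libraries, colored on a log scale, with the count printed in each cell. The control libraries are on the left and the *Sox17*-*Erg* libraries on the right. Control cells at 4 weeks hold 53 to 2488 counts, and no *Sox17*-*Erg* cell holds more than 5.

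*Mlxipl* and *A530016L24Rik* rose in both control libraries by Day 7. *Mlxipl* (ENSMUSG00000005373, chr5:135089890-135138382, plus strand, GRCm38) went from 4 and 3 control counts on Day 3 to 85 and 40 by Day 7, and reached 146 and 53 at 4 weeks. With *Sox17*-*Erg* it had 0 and 1, then 2 and 3, then 5 and 3 counts. The Day 7 control libraries lay above both Day 3 control libraries and above every *Sox17*-*Erg* library. The mean control level went from 0.142 ± 0.00482 CPM on Day 3 to 2.44 ± 1.17 by Day 7, and to 2.91 ± 1.06 at 4 weeks (SD, n = 2 each). From Day 3 to Day 7 the rise was 4.05 on the log2 scale (SE 0.640, adjusted p = 0.0097, edgeR's quasi-likelihood test with Benjamini-Hochberg adjustment over 15506 genes). The adjusted p was 0.090 without library 1 and 0.088 without library 2 of Day 3.

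*Mlxipl* has 2 start sites in RefSeq. The bases ahead of the upstream start are shown because they are the richest in CpG of the promoters found for these genes, and those of *Cyp2f2*, a P450 gene described further on, because they hold none. Both are printed from GRCm38.p6, credited to RefSeq, as the 250 bases before the start on the plus strand, with each CG pair in capitals.
Mlxipl, chr5:135089640-135089889: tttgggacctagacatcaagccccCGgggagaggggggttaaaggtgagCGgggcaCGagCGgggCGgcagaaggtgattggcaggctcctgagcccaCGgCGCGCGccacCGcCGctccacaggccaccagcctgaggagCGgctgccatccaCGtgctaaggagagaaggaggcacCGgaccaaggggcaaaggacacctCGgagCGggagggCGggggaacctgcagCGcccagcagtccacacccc
Cyp2f2, chr7:27119705-27119954: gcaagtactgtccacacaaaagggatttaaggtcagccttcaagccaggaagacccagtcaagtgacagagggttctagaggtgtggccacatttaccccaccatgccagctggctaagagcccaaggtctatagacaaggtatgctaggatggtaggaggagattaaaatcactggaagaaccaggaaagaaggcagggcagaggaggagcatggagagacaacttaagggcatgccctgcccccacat
The *Mlxipl* stretch holds 18 CpG at 69.2% GC and the *Cyp2f2* stretch 0 CpG at 51.6% GC. Across 32851 mouse promoters of the same length the medians were 6 CpG and 52.4% GC. The stretch before the inner *Mlxipl* start, chr5:135106641-135106890, holds 8 CpG at 53.2% GC.

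*A530016L24Rik* (ENSMUSG00000043122, chr12:112489448-112499927, plus strand), also called *Nrac*, is a gene named for its expression in adipose and cardiac tissue. Control cultures gave 12 and 9 counts on Day 3, climbed to 156 and 44 by Day 7, and stood at 149 and 74 at 4 weeks. The *Sox17*-*Erg* libraries held 1 and 1, 0 and 4, and 1 and 1 counts. Both control libraries at Day 7 were above both at Day 3, and library 1 at Day 7 was the highest of all in CPM, at 5.99. Mean control CPM was 0.426 ± 0.0145 on Day 3, then 3.88 ± 2.99 by Day 7 and 3.37 ± 0.512 by 4 weeks (SD, n = 2 each). The rise from Day 3 to Day 7 was 3.17 on the log2 scale (SE 0.773, adjusted p = 0.038 by edgeR). Without library 1 at Day 7 it was 2.06 with an adjusted p of 0.14, and without library 1 or 2 of Day 3 the adjusted p was 0.20 or 0.19.

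*Car3* and *Slc36a2* were split between the Day 7 control libraries. *Car3* (ENSMUSG00000027559, chr3:14863512-14872523, plus strand) encodes carbonic anhydrase 3, an abundant cytosolic protein of adipocytes and skeletal muscle. Control libraries had 0 counts on Day 3, and then 2984 and 155 by Day 7 and 2488 and 822 by 4 weeks. With *Sox17*-*Erg* it had 4 and 1 counts on Day 3, then 1 and 0, and 0 in both libraries in the end. The 2 control libraries at Day 7 stood at 114.6 and 6.23 CPM, with one above and the other below the 62.3 and 33.4 CPM at 4 weeks. Day 7 was higher than Day 3 (adjusted p = 0.023 by edgeR). The adjusted p was 0.13 without library 1 of Day 3, 0.12 without library 2 of Day 3 and 0.066 in the 6 control libraries alone. Against a floor of 3 counts in a Day 3 library, the mean at Day 7 was at least 435-fold higher, and library 2 alone was at least 44.9-fold higher.

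*Slc36a2* (ENSMUSG00000020264, chr11:55158470-55185077, minus strand) encodes the proton-coupled amino acid transporter PAT2, a surface protein of brown adipocytes. Control libraries held 0 and 0 counts on Day 3, then 95 and 5 by Day 7 and 163 and 53 by 4 weeks. The *Sox17*-*Erg* libraries held 1 and 0, 0 and 1, and 0 and 0 counts. Library 2 at Day 7 stayed near the Day 3 libraries, at 0.201 CPM, and library 1 stood at 3.65 CPM, inside the 4-week range of 2.16 to 4.08 CPM. The mean at Day 7 was at least 13.9-fold above the Day 3 floor, and library 2 alone at least 1.45-fold. The difference did not pass the test (adjusted p = 0.059 by edgeR), nor in the 6 control libraries alone (adjusted p = 0.108 by edgeR). It passed in edgeR with the replicate number as a block (adjusted p = 0.045) and with no filter on low counts (adjusted p = 8.8e-06). By DESeq2's Wald test it passed too (adjusted p = 0.0013). With 1 library left out the fitted log2 difference lay between 5.49 and 9.62, which rests on 0 counts at Day 3 and is no bound. Of the 31-base words of *Slc36a2* transcripts, 4.03% also occur in *Slc36a1*, a related transporter that ran at 28.0 to 59.5 CPM in the controls and 42.5 to 63.1 CPM with *Sox17*-*Erg*.

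**Figure D2:**
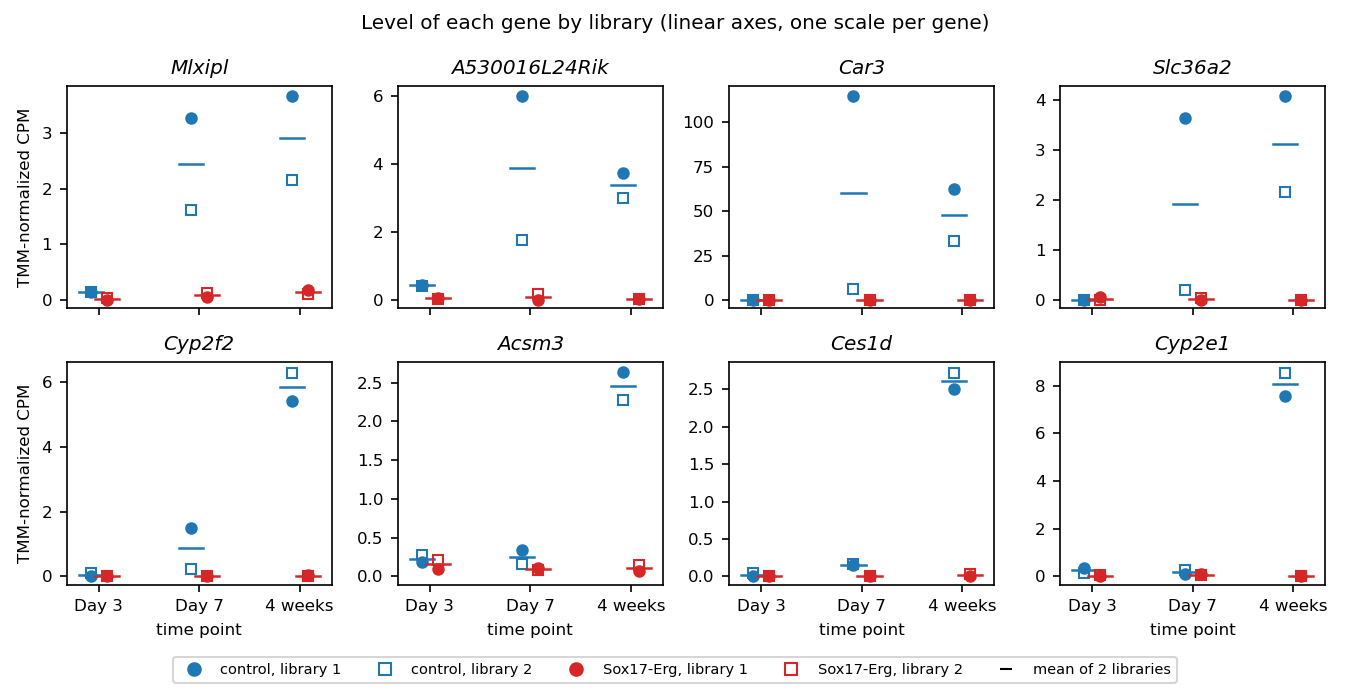
Expression of each of the 8 genes at Day 3, Day 7 and 4 weeks in CPM, in control (blue) and *Sox17*-*Erg* (red) cultures. Each library is a point, and a short line marks the mean of 2 libraries. In the controls *Car3* and *Slc36a2* have 1 high and 1 low library at Day 7, and *Cyp2e1*, *Ces1d* and *Acsm3* stay near 0 until 4 weeks.

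The other genes were at their highest in both libraries at 4 weeks, with little before. *Cyp2f2* (ENSMUSG00000052974, chr7:27119909-27133660, plus strand) encodes a P450 known from lung club cells and liver, where it oxidizes naphthalene. In the controls it began at 0 and 2 counts on Day 3, had 39 and 6 by Day 7, and ended at 217 and 155. The *Sox17*-*Erg* libraries held 1 count in all, in library 1 at 4 weeks. Library 1 at Day 7, at 1.498 CPM, lay above the other early control libraries and below the 5.44 and 6.30 CPM at 4 weeks. With 45 counts at Day 7 and 2 at Day 3, the ratio scaled for depth was 21.7 (95% interval of counting error alone 5.67 to 185). With 1 library left out the fitted log2 difference lay between 2.44 and 7.60, and the upper value, without library 2 of Day 3, rests on 0 counts at Day 3 and is no bound. The difference did not pass edgeR's test (adjusted p = 0.082). It passed DESeq2's Wald test (adjusted p = 0.022) and edgeR with no filter on low counts (adjusted p = 0.00047). It did not pass edgeR with the replicate number as a block (adjusted p = 0.103) or in the 6 control libraries alone (adjusted p = 0.102).

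*Cyp2e1* (ENSMUSG00000025479, chr7:140763739-140774987, plus strand) encodes the ethanol-oxidizing P450. Control libraries gave 10 and 3 counts on Day 3, 3 and 7 on Day 7, and 302 and 210 in the 4-week cultures. With *Sox17*-*Erg* it had 0 and 1, 4 and 1, and 1 and 1 counts. Day 3 and Day 7 overlapped, and both libraries at 4 weeks stood far above them, at 7.57 and 8.54 CPM. From Day 3 to Day 7 the difference was -0.38 on the log2 scale (SE 0.644, adjusted p = 0.76 by edgeR). *Ces1d* (ENSMUSG00000056973, chr8:93166068-93197838, minus strand) encodes a carboxylesterase that hydrolyzes triacylglycerol in fat and liver. Controls held 0 and 1 counts on Day 3, 4 and 4 on Day 7, and 100 and 67 in the 4-week cultures. A single count, in library 2 at 4 weeks, was all that the *Sox17*-*Erg* libraries had. At 4 weeks the 2 control libraries were the closest of the 8 genes, at 2.62 ± 0.155 CPM (SD, n = 2). The 8 counts at Day 7 against 1 at Day 3 gave a ratio of 7.72 (95% interval of counting error alone 1.03 to 342) and did not pass edgeR's test (adjusted p = 0.18). With 1 library left out the fitted log2 difference lay between 1.67 and 5.15, and the upper value, without library 2 of Day 3, rests on 0 counts at Day 3 and is no bound.

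*Ces1d* shares 6.34% of its 31-base words with 8 other genes, *Ces1b*, *Ces1c* and *Ces1g* of the *Ces1* cluster among them, so part of its reads could be assigned either way. The cluster members *Ces1b*, *Ces1c* and *Ces1e* were at 0 counts in all 12 libraries. *Ces1f* had 37 and 5 counts in the 4-week controls and *Ces1g* had 16 and 0, both fewer than *Ces1d*.

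*Acsm3* (ENSMUSG00000030935, chr7:119760923-119787513, plus strand) encodes a mitochondrial medium-chain acyl-CoA synthetase. Controls gave 5 and 6 counts on Day 3, 9 and 4 on Day 7, and 105 and 56 in the 4-week cultures. With *Sox17*-*Erg* it had 2 and 5, 4 and 2, and 2 and 4 counts, so its early control counts touched the *Sox17*-*Erg* range. It was the least silent of the 8 genes with *Sox17*-*Erg*. The difference from Day 3 to Day 7 was 0.16 on the log2 scale (SE 0.594, adjusted p = 0.90 by edgeR). *Eri2*, on the opposite strand, overlaps *Acsm3* in the annotation and ran at 5.71 to 10.3 CPM in the controls. Antisense genes are annotated across *Cyp2f2* and *Mlxipl* too, and the strand setting of the counting is not given.

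The promoters of *Cyp2e1* and *Acsm3*, both late genes, are shown because they are the 2 that held a searched motif. They are 250 bases before the RefSeq start on the plus strand of GRCm38.p6, with the motif matches in capitals.
Cyp2e1, chr7:140763569-140763818: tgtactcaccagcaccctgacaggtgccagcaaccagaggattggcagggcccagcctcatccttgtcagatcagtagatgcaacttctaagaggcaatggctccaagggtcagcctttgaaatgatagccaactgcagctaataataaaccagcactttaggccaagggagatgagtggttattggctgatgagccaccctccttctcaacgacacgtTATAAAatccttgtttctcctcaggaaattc
Acsm3, chr7:119760673-119760922: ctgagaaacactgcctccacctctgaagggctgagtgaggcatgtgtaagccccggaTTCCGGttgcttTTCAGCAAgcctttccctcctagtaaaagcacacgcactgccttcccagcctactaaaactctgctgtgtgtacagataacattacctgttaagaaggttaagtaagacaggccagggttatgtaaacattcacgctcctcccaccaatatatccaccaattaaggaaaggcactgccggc
Motifs were searched on both strands of the 5 promoters found, those of *Acsm3*, *Cyp2e1*, *Cyp2f2* and the 2 starts of *Mlxipl*. TATAAA, the TATA box, lies 31 to 26 bases before the *Cyp2e1* start and occurs in 12.4% of all promoters. The RefSeq starts of *Cyp2e1* and *Cyp2f2* lie downstream of the gene positions given above. The last bases of both stretches, the TATAAA of *Cyp2e1* included, thus lie inside the gene by those positions. In *Acsm3*, CCGGAA, a core of the motif of ETS factors such as Erg, lies on the minus strand 193 to 188 bases before the start, as TTCCGG in the sequence printed, and occurs in 12.03% of all promoters. TTGCNNAA, a C/EBP motif, lies 181 to 174 bases before the same start, also on the minus strand, and occurs in 9.56%. ACAAT, a SOX core, and the DR1 repeat of nuclear receptors such as PPARγ were in 0 of the 5, against 27.7% and 0.0335% of all promoters. No 2 of these matches overlap. A match is a string of letters and does not show binding.

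The Day 7 controls were also set against each gene's own 4-week mean, from the values already given. *Mlxipl* stood at 112% and 55.3% of its 4-week mean in libraries 1 and 2, and *A530016L24Rik* at 178% and 52.5%. *Car3* stood at 239% and 13.01% and *Slc36a2* at 117% and 6.44%. For *Cyp2f2* the shares were 25.5% and 4.11%, for *Acsm3* 14.1% and 6.55%, for *Ces1d* 5.87% and 6.15%, and for *Cyp2e1* 1.43% and 3.49%. The first 4 genes had library 1 past the 4-week mean, and the last 4 had neither library above 25.5% of it. In library 2 alone *Slc36a2* lay among the last 4 genes, between *Acsm3* and *Ces1d*.

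**Figure D3:**
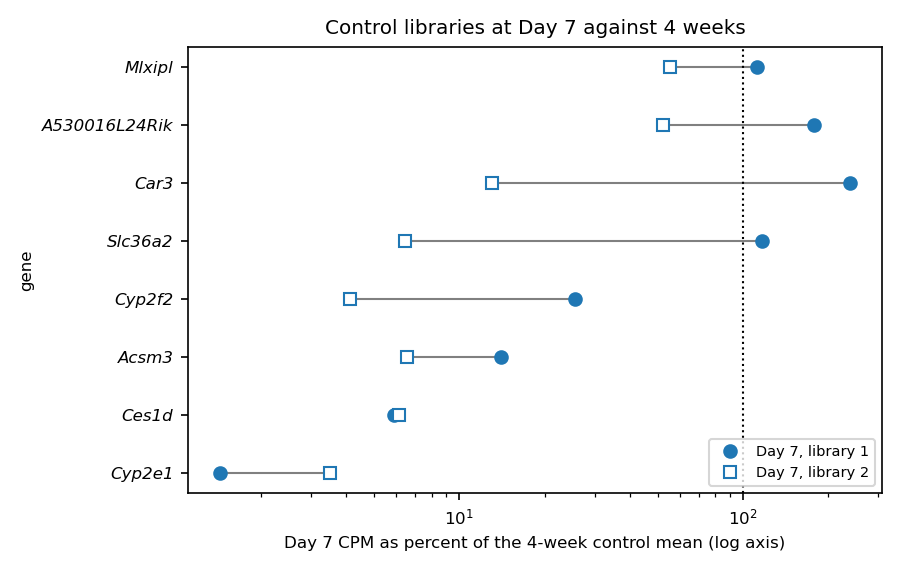
Control CPM at Day 7 as a percentage of the gene's own 4-week control mean, for libraries 1 and 2 of each of the 8 genes on a log axis. Library 1 lies above library 2 for 6 of the 8 genes, by the most for *Car3* and *Slc36a2*.

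Levels at 4 weeks were compared between genes per kilobase of exon. *Car3* was highest at 16.7 CPM per kb, with libraries at 21.8 and 11.7, followed by *Cyp2e1* at 3.73 and *Cyp2f2* at 2.90. *Cyp2e1* (3.51 and 3.96) and *Cyp2f2* (2.69 and 3.11) did not overlap each other or *Car3*. *Ces1d* at 1.10, *A530016L24Rik* at 1.08 and *Slc36a2* at 0.958 CPM per kb overlapped, as did *Mlxipl* at 0.525 and *Acsm3* at 0.497.

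Across the controls, 3 of the 8 genes were higher at Day 7 than at Day 3 (*Mlxipl*, *Car3* and *A530016L24Rik*) and 0 were lower, at an adjusted p under 0.05 by edgeR. Of all 15506 genes tested, 4.70% were higher and 4.06% lower, 8.76% in either direction. At an unadjusted p under 0.05, 4098 genes differed in either direction. The median log2 difference of the 8 genes was 3.61, or 3.48 with the 2 genes at 0 on Day 3 set to their bound, beside -0.0079 over all genes tested. It ran from 2.58 without library 1 of Day 7 to 4.59 without library 2 of Day 3. All 8 passed the filter on low counts, which both 4-week control libraries of each gene satisfied through the limits that chose it. Those limits asked for high counts in the 4-week controls and few in the *Sox17*-*Erg* libraries, Day 3 included. They favor genes that are low early, can hardly fall and rise later. The calls and the median set beside all genes are therefore partly fixed by the choice of genes. Without library 1 or library 2 of Day 3, 0 of the 8 were called, beside 0.423% and 0.366% of all genes, with *Mlxipl* at adjusted p = 0.090 and 0.088. Without library 1 of Day 7, *Car3* and *Mlxipl* stayed called, 2 of 8 beside 4.43% of all genes. Without library 2 of Day 7, 4 of the 8 were called, beside 1.16%. In other fits 5 of the 8 were higher by DESeq2's Wald test (8.41% of all genes), 5 with no filter on low counts (5.32%), 3 with DESeq2's size factors in edgeR (4.85%), 2 in the 6 control libraries alone (3.77%) and 4 with the replicate number as a block (5.58%). For a single gene an exact permutation test of 2 libraries against 2 cannot give a p below 0.33. The labels do not say whether the 2 libraries of a group came from separate isolations, so the spread between them may be technical.

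The Day 7 split was read as the CPM ratio of library 1 to library 2, and the plot of ratios sets it against the same ratio at 4 weeks. At Day 7 the ratio was 18.4 for *Car3* and 18.2 for *Slc36a2*, then 6.21 for *Cyp2f2*, 3.39 for *A530016L24Rik*, 2.15 for *Acsm3*, 2.03 for *Mlxipl*, 0.956 for *Ces1d* and 0.410 for *Cyp2e1*. At 4 weeks all 8 lay between 0.863 and 1.90. Among the 15506 genes tested, 4 had a larger log2 gap of this direction than *Car3* and 26 had a larger one than *Slc36a2* (pseudocount 0.5 CPM). Of the adipocyte genes set aside, the Day 7 ratio was 26.4 for *Retn*, 16.3 for *Cfd*, 13.8 for *Adipoq*, 13.3 for *Cidec* and 12.1 for *Plin1*. It was smaller for *Fabp4*, at 2.70. The ratios of the genes set aside at 4 weeks were 1.11 to 2.29, leaving out *Lep*, which had at most 3 counts in any library. The wider adipocyte list described below was mixed at Day 7. Library 1 was higher for *Gpd1* (18.1 and 0.924 CPM) and *Scd1* (1045 and 145 CPM). Library 2 was higher for *Angptl4* (9.52 and 41.4 CPM), *Plin4* (38.9 and 77.1 CPM) and *Lpl* (799 and 1400 CPM). Marker sums of other cell types also differed between libraries 1 and 2 of Day 7. The 36 macrophage and leukocyte markers summed to 1331 and 1962 CPM, the 6 endothelial markers to 18.2 and 44.0 CPM, and the 20 smooth muscle and pericyte markers to 1648 and 889 CPM. On Day 3 of the control these sums were 593 and 380, 23.5 and 47.2, and 4134 and 3798 CPM, in that order. The 21 epicardial and mesothelial markers summed to 1615 and 901 CPM, and library 1 was also the higher at Day 3 (1368 and 606 CPM) and at 4 weeks (2264 and 1437 CPM). Their part in the split was not tested.

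**Figure D4:**
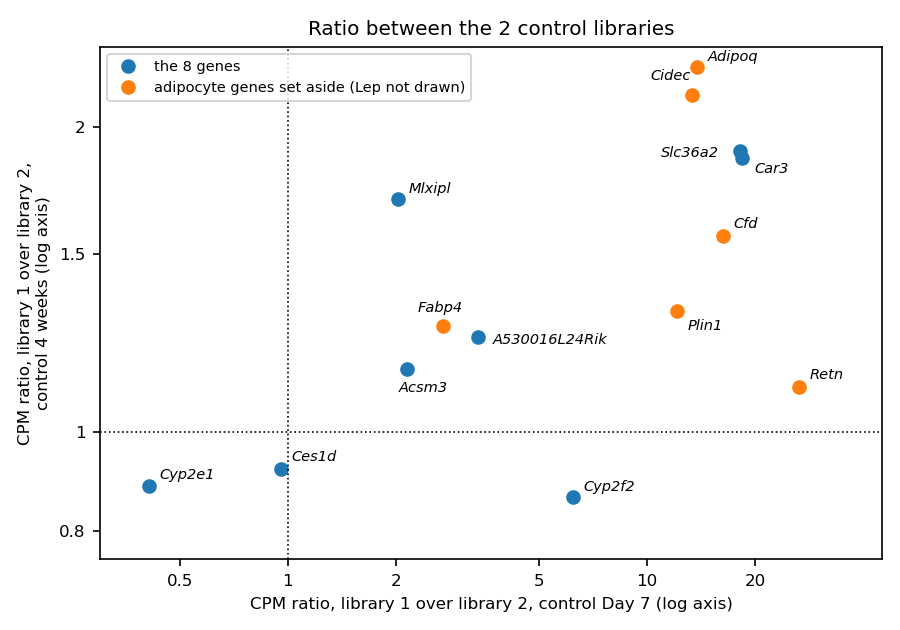
CPM ratio of control library 1 to library 2 at Day 7 (horizontal, log axis) and at 4 weeks (vertical, log axis) for the 8 genes and 6 of the adipocyte genes set aside. *Car3* and *Slc36a2*, at 18.4 and 18.2, lie with *Adipoq*, *Cidec*, *Cfd*, *Plin1* and *Retn* at Day 7 ratios of 12.1 or more, and dotted lines mark a ratio of 1.

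The wider adipocyte and lipid handling list held 51 genes, *Car3* and *Slc36a2* among them, and 38 of the other 49 were tested. From Day 3 to Day 7 in the controls 10 of the 38 were higher and 4 lower, beside 4.70% and 4.06% of all genes tested. *Cebpa*, a master regulator of fat cell formation, rose by 1.94 on the log2 scale (SE 0.335, adjusted p = 0.013 by edgeR), from 205 and 177 counts to 1018 and 522. The lipases *Pnpla2* and *Lipe* rose by 1.68 and 1.54 (adjusted p = 0.015 and 0.025), *Pnliprp2*, a pancreatic lipase relative, fell by 4.604 (adjusted p = 0.018), and *Lpl*, lipoprotein lipase, stood at 0.68 (adjusted p = 0.43). *Gpd1*, which makes the glycerol backbone of triacylglycerol, rose by 4.34 (adjusted p = 0.040). *Pparg* stood at 0.85 (adjusted p = 0.28). Some genes on the list are known as ChREBP targets, and those named here are not a fixed or full set. Among them *Thrsp* rose by 3.71 (adjusted p = 0.034), and *Fasn* and *Acaca* fell by 0.97 and 0.83 (adjusted p = 0.034 and 0.030). *Scd1*, *Elovl6* and *Pnpla3* stood at 0.98, -1.26 and 3.08 (adjusted p = 0.44, 0.091 and 0.20). Without library 1 of Day 7, *Cebpa* stood at 1.45 (adjusted p = 0.033), *Gpd1* at 1.01 (adjusted p = 0.13), *Lipe* at 1.29 (adjusted p = 0.071), *Thrsp* at 1.39 (adjusted p = 0.075), *Fasn* at -1.29 (adjusted p = 0.024) and *Scd1* at -1.04. Without that library 4 of the list were higher, beside 4.43% of all genes, and without library 1 or 2 of Day 3 the count was 0 or 1, beside 0.423% or 0.366%.

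Summed over the 49 genes other than *Car3* and *Slc36a2*, the adipocyte list stood in the controls at 1658 and 2283 CPM on Day 3, 2929 and 2345 CPM on Day 7 and 3157 and 2982 CPM in the 4-week cultures. With *Sox17*-*Erg* the sum was 1203 to 1895 CPM, so other genes of the list were expressed there. *Fabp4*, a fatty acid carrier also made by endothelial cells, had 3618 to 5959 counts with *Sox17*-*Erg*. *Pparg* had 25 to 377 counts and *Cebpa* 94 to 432 counts in those libraries.

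*Ces1d*, *Cyp2e1* and *Cyp2f2* belong to a family of oxidation, conjugation and steroid enzymes defined by gene symbols, in which 135 other genes were tested. Of these, 21 were higher and 4 lower at Day 7 than at Day 3 in the controls by edgeR, beside 4.70% and 4.06% of all genes tested. Leaving out 1 library in turn gave 3 to 16 higher, with 4 and 3 without library 1 and 2 of Day 3 (0.423% and 0.366% of all genes), 5 without library 2 of Day 7 (1.16%) and 16 without library 1 of Day 7 (4.43%). *Cyp2e1* is best known from hepatocytes and *Cyp2f2* from club cells, and markers of both cell types were read in the same libraries. The hepatocyte list of 10 genes summed in the controls to 5.60 and 6.80 CPM on Day 3, 20.05 and 40.3 CPM on Day 7 and 46.4 and 42.3 CPM in the 4-week cultures, with the defining gene *Alb* at 2 counts in 1 Day 7 library and 0 in the other control libraries. The *Sox17*-*Erg* libraries reached a sum of 17.6 and 22.3 CPM at 4 weeks, where *Cyp2e1* had 1 count in each library. Of the 10 genes 4 were tested, and from Day 3 to Day 7 in the controls 1 was higher (*Ahsg*) and 1 lower (*Apob*), with a median log2 difference of -0.78. The club cell list of 6 genes summed to 6.59 to 80.4 CPM and was highest at Day 3, with the defining gene *Scgb1a1* at 0 or 1 count. The brown adipocyte list of 7 genes, read because of *Slc36a2*, summed to 1.38 and 1.16 CPM on Day 3, 4.26 and 6.43 CPM on Day 7 and 13.8 and 9.19 CPM in the 4-week cultures, with *Ucp1* at 0 in every control library. In the *Sox17*-*Erg* libraries the sum was 5.36 to 30.2 CPM, and at Day 3 and Day 7 it was above the controls, while *Slc36a2* had at most 1 count in those libraries. The skeletal muscle list of 23 genes, read because of *Car3*, summed to 11.3 to 17.9 CPM with overlapping ranges at Day 7 and 4 weeks. The part of these cell types in the values of the 8 genes was not tested.

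Just inside the limits were *Slc36a2* and *Mlxipl*, each with 53 counts in library 2 of the 4-week controls, and *Acsm3* with 56. *Acsm3* and *Mlxipl* reached 5 counts in a *Sox17*-*Erg* library. Just outside on the upper limit were *Adra1a*, an adrenergic receptor, with a highest *Sox17*-*Erg* count of 6, *Cnmd*, the cartilage protein chondromodulin, with 7, and *Thrsp*, also with 7. Their smaller counts in the 4-week controls were 83, 410 and 209. Just outside on the minimum were *Tmem52*, *Lgals12*, a lipid droplet lectin, and *Wdr86*, with 49, 41 and 38 counts in the lower library at 4 weeks. *Adra1a*, *Cnmd* and *Tmem52* were higher in library 2 at Day 7, with 5 and 63, 35 and 72, and 23 and 102 counts in libraries 1 and 2. *Thrsp*, *Lgals12* and *Wdr86* were higher in library 1, with 288 and 30, 49 and 10, and 34 and 22 counts. With counts scaled to the median library total, 7 genes met the limits. *Acsm3* and *Car3* left and *Tmem52* joined. *Car3* left through its 4 counts in the shallowest *Sox17*-*Erg* library, at Day 3.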

How the data were processed

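Bulk RNAseq libraries (Kapa stranded mRNA kit, paired-end) were made from control and *Sox17*-*Erg* cultures. The authors trimmed with BBDuk, used Salmon for quantification and deposited gene-level estimated counts, rounded to whole numbers and not scaled for depth. The submitters' processing notes name bcl2fastq 2.20.0, mm10 and DESeq2. The Salmon version, annotation and strand setting are not given in the sources used here. Positions, gene types and shared words came from GENCODE M21 (GRCm38), which held 35493 of 35727 genes. Of the columns of per-sample values, 0 were left unmapped.

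Groups came from the sample labels. The choice of genes used every *Sox17*-*Erg* library and both 4-week controls, so only Day 7 against Day 3 of the control was tested. Members, gene lists and alternatives were chosen with earlier results of these data known, and the hepatocyte, club cell and brown adipocyte lists after the 8 names were known. The quasi-likelihood model of edgeR 4.0.16 (R 4.3.3) was used with TMM factors (genes kept by filterByExpr at minima of 10 per library and 15 in total, 1 mean per group over 12 libraries, 6 residual degrees of freedom), and DESeq2 1.42.0 was an alternative. A gene was called at an adjusted p under 0.05. On data simulated for this comparison over 15506 genes, 86 of 100 genes changed by 2 on the log2 scale and 41 of 100 changed by 1 were recovered, with 7 false calls among 134. The changed genes were drawn only from those above a minimum mean level over Day 3 and Day 7 of the control. *Cyp2f2*, *Acsm3*, *Ces1d* and *Cyp2e1* lie below that minimum, so the recovery does not apply to genes that low. Folds against groups at 0 used a floor of 3 counts per library. Intervals and floors cover counting error only, and replicates differed by more than that. Genes named are the 8 members by their 4-week level, their calls and their lists, the 3 genes nearest outside each limit, and members of the lists that bear on them. The other list genes named, such as *Cebpa* and *Thrsp*, and the genes whose Day 7 split is given were picked after their values were seen. The promoter table held 4 of the 8 genes.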

Additional observations from a re-analysis of the deposited data

How the results depend on the processing

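The limits set how many genes are described. An upper limit of 3 counts left 3 genes and one of 10 gave 17, a minimum of 100 counts left 3, and leaving out 1 library in turn gave 8 to 18, the latter without library 2 of the 4-week controls. For Day 7 against Day 3 of the control, 5 of the 8 genes were higher by DESeq2's Wald test (8.41% of all genes), 5 with no filter on low counts (5.32%) and 1 at an adjusted p under 0.01 (0.845%), and 0 to 4 when 1 library was left out. In all genes tested, 1217 were higher and 972 lower by DESeq2, 1366 and 1048 with no filter, and 131 and 72 at an adjusted p under 0.01, against 729 and 629 as reported. With the 6 control libraries alone 561 were higher and 309 lower, 2 of the 8 genes were called, and *Car3* had an adjusted p of 0.066. Leaving out 1 library gave 59 to 715 higher and 32 to 406 lower. The number of samples falls in those fits. In the alternatives chosen after seeing the data, the adipocyte list had 0 to 7 genes higher and 0 to 4 lower, and the enzyme family 3 to 16 higher and 1 to 5 lower, when 1 library was left out. The differences of *Acsm3* and *Cyp2e1* changed sign with the library left out, from -0.46 to 0.60 and from -1.14 to 0.49 on the log2 scale, and never passed the test. The labels do not say that samples with the same number share an isolation. Their deviations at Day 3 and Day 7 of the control correlated at 0.24 over genes, and the epicardial and mesothelial sum was higher in library 1 in all 6 groups, a hint from the data and not the design. With the replicate block, 865 genes were higher and 699 lower, and 4 of the 8 were called, *Slc36a2* joining at 8.43 on the log2 scale (adjusted p = 0.045). DESeq2's size factors in edgeR gave 752 and 614 and the same 3 of 8. The cause of these changes was not tested. At totals of 19011635 to 41240449 counts, 3 counts correspond to at most 0.152 CPM, so expression below that level could not be told from 0.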

Other observations

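Complement and acute phase genes, 32 of them in the table, summed in the same controls to 1048 and 1341 CPM on Day 3, to 4205 and 6940 CPM on Day 7 and to 13058 and 10613 CPM in the 4-week cultures, and to 297 to 3842 CPM with *Sox17*-*Erg*. The 64 extracellular matrix genes in the table summed to 4365 and 5140 CPM on Day 3, 7974 and 10493 CPM on Day 7 and 14346 and 12130 CPM in the 4-week cultures. With *Sox17*-*Erg* they summed to 3763 and 4978 CPM on Day 3, 6810 and 6709 CPM on Day 7 and 7931 and 7759 CPM in the 4-week cultures. Both sums were lower in library 1 than in library 2 at Day 7, where *Car3* was higher in library 1. These lists were singled out after their values were seen, and the sums carry no test.

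The 4 tested genes with a larger log2 gap than *Car3* of library 1 over library 2 at Day 7 were *Gm28439*, *Rps27rt*, *Gm12918* and *Gm12346*, each listed at 0 counts in library 2. Among the named genes with the next largest gaps, leaving out rows at 0 in library 2, were *Gpd1* with 472 and 23 counts, *Cfd* with 783 and 46, *Il1rn*, the interleukin 1 receptor antagonist, with 371 and 18, and *Retn* with 221 and 8.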
